A study of Mus musculus with 13 samples.

Results

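The SLAM family of lymphocyte receptors and its adaptor SAP were followed in CD4+ T cells that had met macrophages of pancreatic islets. The set comprised 8 of the 55774 gene entries in the count table. They are the receptor genes Slamf1, Slamf6, Slamf7, Cd48, Cd84, Ly9 and Cd244 and the adaptor gene Sh2d1a, taken by their identifiers. Of these, 7 were found under their own symbol, and Cd244 was listed as Cd244a, a symbol that RefSeq pairs with it. All 8 passed the filter on low counts.

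RNA was sequenced in 13 libraries of splenic CD4+ T cells from female BDC2.5 mice of strain NOD/ShiLtJ, whose transgenic T cell receptor, made of the chains TcraBDC2.5 and TcrbBDC2.5, recognises a beta-cell antigen. In 5 libraries the T cells had spent 96 hours with islet macrophages of NOD mice given 1 low dose of streptozotocin (STZ), a toxin that kills beta cells (STZ-macrophage co-culture). In 4 libraries the macrophages came from NOD mice given buffer (control-macrophage co-culture), and 4 libraries held untreated cells alone. Injection of the donors took place at 4 weeks of age and islet harvest 10 days later, at 5.5 weeks. Macrophages were enriched on magnetic beads, so other islet cells can remain among them, and the T cells were recovered after the co-culture by a sort for live CD45+Thy1.2+CD4+ cells. All groups therefore carry the same transgenic receptor, and the age of the T cell donors and any culture of the cells alone are not given in the labels. The labels call the replicates biological but do not say how many animals gave each. Collection day 1 held all 4 cells-alone libraries, control-macrophage replicates 1, 2 and 4 and STZ-macrophage replicates 1 and 5, and day 2 held the others.

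SLAM receptors are immunoglobulin-type surface proteins that cells use to recognise one another. Slamf1, Slamf6, Slamf7, Cd84 and Ly9 bind their own kind on a neighbouring cell, whereas Cd48, which is anchored in the membrane by a lipid, is a ligand of Cd244 and, in mice, of Cd2. Most members carry tyrosine motifs in their tails that recruit SAP, the small adaptor encoded by Sh2d1a, and SAP brings in the kinase Fyn. Without SAP the same motifs can recruit the phosphatases encoded by Ptpn6, Ptpn11 and Inpp5d. In CD4+ T cells this family is known for lasting contacts with B cells, follicular helper function, interleukin 4 production and the development of innate-like T cells.

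The 7 receptor genes lie together on mouse chromosome 1 (build GRCm38, 171559193 to 171953170, 394 kb), in the order Cd244a, Ly9, Slamf7, Cd48, Slamf1, Cd84 and Slamf6, with Ly9 and Slamf7 on the minus strand. Sh2d1a lies on the X chromosome, at 42502453 to 42529330 on the plus strand. The library kit keeps no strand, so reads of a gene and an overlapping antisense gene cannot be told apart. Of the exonic bases of Sh2d1a, 26.6% overlap Tenm1, which had at most 20 counts in any library, and of those of Slamf7 9.24% overlap Gm37787, which had at most 9 counts. The exons of the other 6 members overlap no other gene in the annotation.

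The 250 bases before the start site are shown for Slamf6, Cd84, Slamf1 and Slamf7, the 4 receptors that differed from cells alone after both co-cultures under every alternative tried, so that the neighbours in the cluster can be compared. They were taken from RefSeq's promoter table (GRCm38.p6), which held 6 of the 8 members. Capitals mark a letter match, on either strand, to a RUNX motif (TGTGGT) or an AP-1 motif (TGANTCA).
Slamf6, chr1:171917212-171917461, plus strand: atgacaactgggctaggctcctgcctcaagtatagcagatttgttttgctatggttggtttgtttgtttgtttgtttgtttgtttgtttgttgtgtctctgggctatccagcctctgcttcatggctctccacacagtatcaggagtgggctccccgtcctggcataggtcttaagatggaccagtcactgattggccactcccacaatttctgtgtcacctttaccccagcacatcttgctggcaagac
Cd84, chr1:171839447-171839696, plus strand: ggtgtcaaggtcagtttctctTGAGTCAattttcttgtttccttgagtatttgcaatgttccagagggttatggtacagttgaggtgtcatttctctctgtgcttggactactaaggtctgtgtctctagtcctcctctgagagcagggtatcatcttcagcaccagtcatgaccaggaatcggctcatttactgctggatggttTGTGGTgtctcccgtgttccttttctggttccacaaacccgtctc
Slamf1, chr1:171766882-171767131, plus strand: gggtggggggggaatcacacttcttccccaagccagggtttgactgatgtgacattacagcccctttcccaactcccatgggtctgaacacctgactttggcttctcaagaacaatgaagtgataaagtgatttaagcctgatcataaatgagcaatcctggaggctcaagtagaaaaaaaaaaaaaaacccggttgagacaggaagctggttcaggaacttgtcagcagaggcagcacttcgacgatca
Slamf7, chr1:171649000-171649249, minus strand: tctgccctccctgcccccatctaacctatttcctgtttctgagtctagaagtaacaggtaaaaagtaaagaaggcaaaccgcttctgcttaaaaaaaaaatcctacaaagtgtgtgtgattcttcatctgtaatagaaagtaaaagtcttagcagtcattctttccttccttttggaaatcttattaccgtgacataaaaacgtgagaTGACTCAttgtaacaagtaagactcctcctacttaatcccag

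Cd84 held 1 RUNX match, 45 bases before the start, and 1 AP-1 match, 229 bases before it. Slamf7 held 1 AP-1 match, 42 bases before its start. Cd48, not shown, held 1 RUNX match and 1 match to the TCF/LEF letters CTTTGA, and Cd244a 1 AP-1 match. In the windows of Slamf6 and Slamf1 none of these letters occurred, nor did the NFAT letters GGAAAA in any of the 6 windows. Among 32851 RefSeq promoters, 14.0% held the RUNX letters, 6.75% the AP-1 letters, 13.8% the TCF/LEF letters and 20.4% the NFAT letters. A match is a description of the sequence and not a binding site.

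Library totals ran from 17.3 to 61.3 M counts. Levels are given as CPM, counts per 1 M of the library total times its TMM factor. All 8 T cell markers listed (Cd3d, Cd3e, Cd3g, Cd4, Trac, Thy1, Cd5 and Cd28) had counts in every library, and their summed CPM was 5648 to 7368 in STZ-macrophage, 7217 to 12604 in control-macrophage co-cultures and 4847 to 9227 in cells alone. The 16 macrophage markers summed to 197 to 383 CPM in STZ-macrophage, 277 to 588 in control-macrophage and 136 to 333 in cells-alone libraries. Most of that sum was Ctss, a protease gene that cells alone held at 129 to 320 CPM, and without it the other 15 summed to 26.1 to 123 CPM in STZ-macrophage, 8.12 to 62.5 in control-macrophage and 3.22 to 13.7 in cells-alone libraries. Of the 14 macrophage markers tested, 7 were higher with STZ macrophages and 5 with control macrophages than in cells alone, and none was lower. Between STZ- and control-macrophage co-cultures 12 of the 14 had a positive log2 fold change and 0 passed. The 8 CD8 T and NK cell markers summed to 208 to 517 CPM in STZ-macrophage, 127 to 770 in control-macrophage and 17.7 to 42.8 in cells-alone libraries. Most of that sum in the co-cultures was Nkg7, averaging 285 CPM with STZ macrophages, 277 with control macrophages and 1.63 in cells alone. Cd8b1 went the other way, at 12.0 with STZ macrophages, 19.4 with control macrophages and 26.0 in cells alone. Of 7 tested, 4 were higher and 1 lower with STZ macrophages than in cells alone. With control macrophages 5 were higher and 0 lower. The 8 B cell markers summed to 1.16 to 2.97 CPM in STZ-macrophage, 1.02 to 2.14 in control-macrophage and 6.13 to 22.2 in cells-alone libraries. Cd14 was at 0 in all cells-alone libraries and Mertk in all control-macrophage libraries, while none of the 16 macrophage markers was at 0 in the STZ-macrophage group. Control-macrophage replicate 3, the day 2 library of its group, had the highest CPM of its group for 8 of 8 members (44.6% of all 15781 genes tested), and 5 of 8 when scaled by totals alone. Cells-alone replicate 2, the shallowest library, had the lowest of its group for 7 of 8 members (32.5% of all genes). Islet endocrine markers summed to 153 CPM in STZ-macrophage replicate 2 and 114 CPM in replicate 4, and to at most 3.24 CPM in every other library. What part these libraries and other cell types had in the results below was not tested, apart from leaving libraries out.

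**Figure D1:**
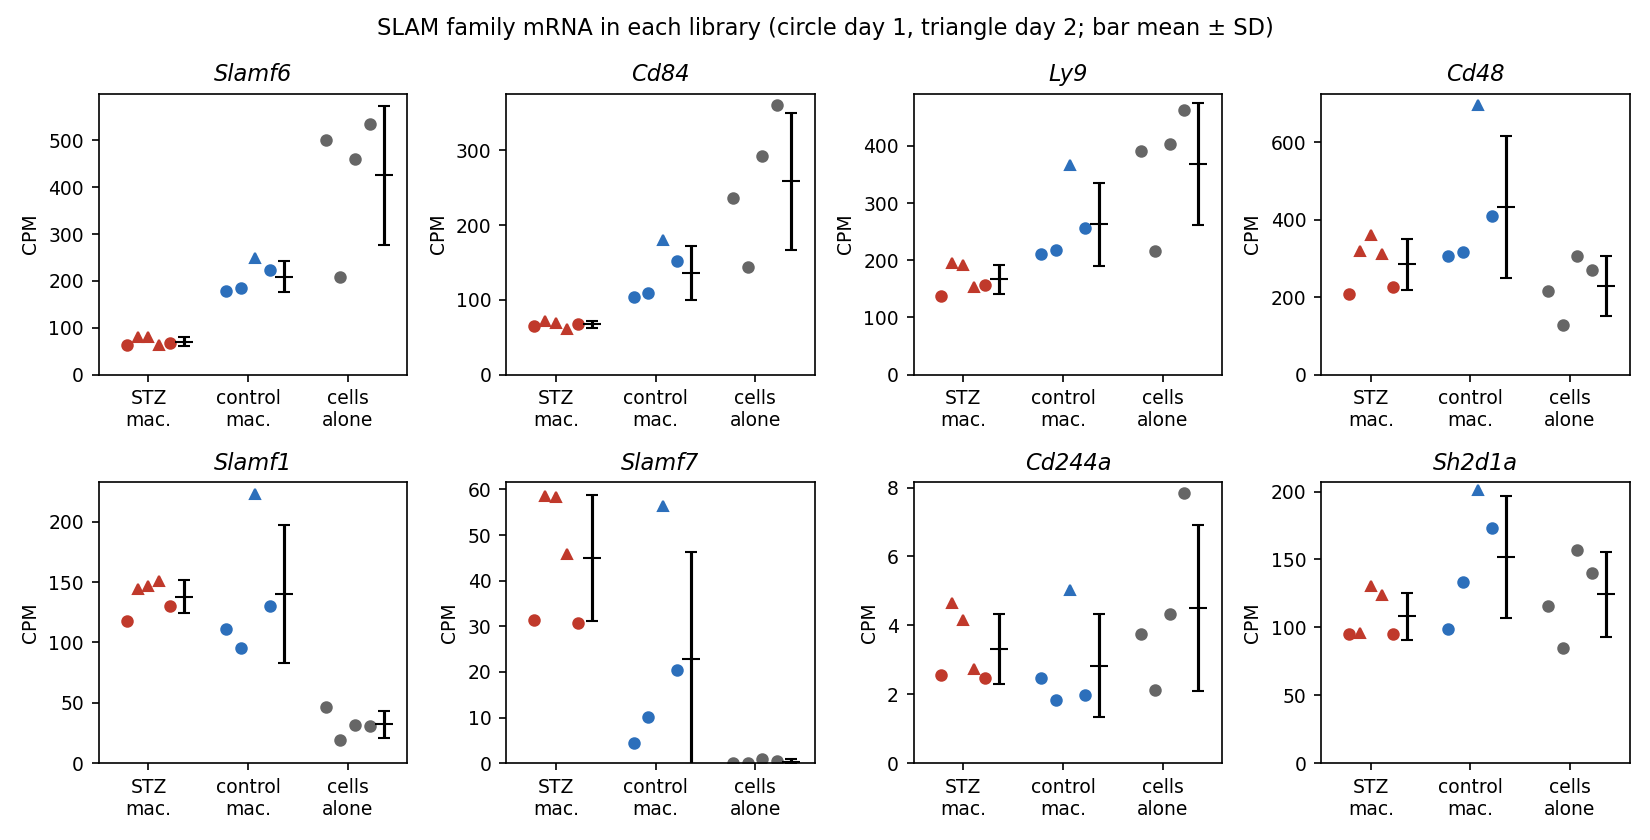
CPM (vertical axes, linear, starting at 0) of the 8 members in each library, with STZ-macrophage co-cultures left, control-macrophage co-cultures in the middle and cells alone right. Circles are day 1 and triangles day 2 libraries, and bars give the mean ± SD of the group, with lower ends under 0 not drawn. Slamf6, Cd84 and Ly9 were lowest in the STZ-macrophage co-cultures with no overlap with the control-macrophage libraries, and Slamf1 and Slamf7 were lowest in cells alone.

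The first question was whether T cells differed in this family after meeting macrophages of STZ-treated rather than buffer-treated donors. Of the 8 members, 1 passed the test (edgeR's quasi-likelihood test, Benjamini-Hochberg adjusted p below 0.05 over all genes), and it was lower in the STZ-macrophage co-culture. Of all 15781 genes tested, 0.323% passed, 0.152% higher and 0.171% lower. The passing member was Slamf6, and 5 of the 8 had an unadjusted p below 0.05, as had 22.8% of all genes. Cd84, Ly9, Cd48 and Sh2d1a had negative log2 fold changes that did not pass, Slamf1 and Cd244a lay near 0, and Slamf7 was positive without passing. The median log2 fold change of the 8 members was -0.70, against -0.13 for all genes. The 8 T cell markers went the same way between these co-cultures, with 0 positive and 0 passing. Their log2 fold changes ran from -0.12 for Cd5 to -0.84 for Cd28, with Trac and Cd3g at -0.68. What part a shift shared with such T cell genes had in the values of the members was not tested. Libraries did not overlap between the groups for 3 members, Slamf6, Cd84 and Ly9, all lower in the STZ-macrophage group, where 5.08% of all genes did the same.

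Against cells alone, members passed in both directions. In the STZ-macrophage co-culture 5 members passed, 2 higher and 3 lower, where 43.1% of all genes passed, 20.8% higher and 22.3% lower. In the control-macrophage co-culture 6 members passed, 3 higher and 3 lower, where 45% of all genes passed, 23.1% higher and 22% lower. Libraries of STZ-macrophage co-culture and cells alone did not overlap for 2 members that were higher and 3 that were lower, where 21.7% and 17.9% of all genes did the same. Libraries of control-macrophage co-culture and cells alone did not overlap for 3 members that were higher and 0 that were lower (22.2% and 17.7% of all genes), and, scaled by totals alone, for 2 that were higher and 3 that were lower (17.5% and 24.6% of all genes). Both comparisons share the cells-alone libraries, and the control-macrophage libraries stand in a comparison with each of the other groups, so that their values are given side by side and are not independent. Day 2 holds no cells-alone library, and the day effect in these fits therefore comes from the co-cultures. In bulk RNA, fewer cells that express a gene and less of its RNA per cell cannot be told apart.

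**Figure D2:**
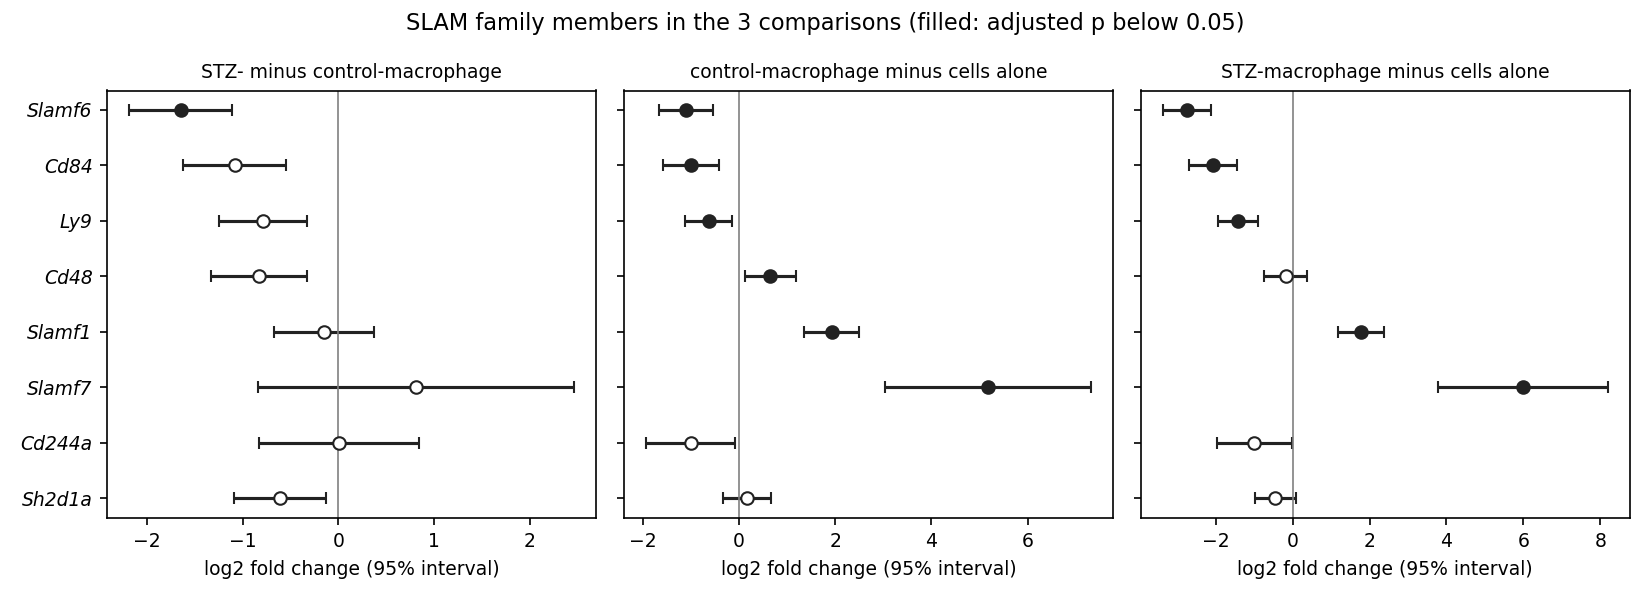
Log2 fold change (horizontal axes, which differ in range) of each member with its 95% interval, for STZ- against control-macrophage co-culture, control-macrophage co-culture against cells alone and STZ-macrophage co-culture against cells alone. Filled points passed the adjusted threshold. Slamf6 is filled and left of 0 in all 3 panels, and Slamf1 and Slamf7 are filled and right of 0 in the comparisons with cells alone.

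Among the self-binding receptors, Slamf6 (also known as Ly108), a SAP-binding receptor found on early, less differentiated T cells, passed in all 3 comparisons. It had 62.8, 80.5, 80.4, 62.6 and 67.5 CPM in STZ-macrophage replicates 1 to 5, against 179.2, 185.2, 249.9 and 223.0 CPM in control-macrophage replicates 1 to 4 and 500.0, 207.8, 461.0 and 534.6 CPM in cells-alone replicates 1 to 4. Every STZ-macrophage library lay below every other library, while the lowest cells-alone library, replicate 2, lay inside the control-macrophage range. The means were 70.8 ± 9.04 CPM in STZ-macrophage (SD, n = 5), 209 ± 33.3 CPM in control-macrophage (SD, n = 4) and 426 ± 148 CPM in cells-alone libraries (SD, n = 4). Between the STZ- and control-macrophage co-cultures the log2 fold change was -1.65 ± 0.25 (SE; edgeR's quasi-likelihood adjusted p = 0.0199), and Slamf6 ranked 14th of all genes by p. It was also lower in control-macrophage co-culture than in cells alone (-1.10 ± 0.26, adjusted p = 0.00411) and in STZ-macrophage co-culture than in cells alone (-2.74 ± 0.29, adjusted p = 1.3e-05).

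The STZ-macrophage call for Slamf6 depended on the libraries used. It ended when any of the control-macrophage replicates 1, 2, 3 or 4 was left out (adjusted p = 0.0631, 0.0618, 0.0892 and 0.145) and when any of the STZ-macrophage replicates 1, 2, 4 or 5 was left out (adjusted p = 0.140, 0.0532, 0.0672 and 0.138). The log2 fold change itself stayed between -1.69 and -1.42 in all 25 alternatives, of which 14 kept the call. Within day 1 it was -1.59 (adjusted p = 0.0918) and within day 2 -1.75 (adjusted p = 0.127), where the control group is a single library. The 2 STZ-macrophage libraries with islet transcripts, replicates 2 and 4, are both of day 2, and without them the log2 fold change was -1.43 (adjusted p = 0.260).

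Cd84, a self-binding receptor of T cells, B cells and myeloid cells, followed the same order with smaller differences. It had 65.2, 72.3, 69.4, 60.6 and 68.2 CPM in the STZ-macrophage libraries, against 104.5, 108.7, 180.6 and 151.5 CPM in the control-macrophage libraries and 236.0, 144.6, 292.3 and 361.2 CPM in cells alone. The STZ-macrophage libraries lay within a narrow band below all others, and the control-macrophage and cells-alone ranges overlapped through cells-alone replicate 2. Cd84 averaged 67.1 ± 4.44 CPM in STZ-macrophage (SD, n = 5), 136 ± 36.4 CPM in control-macrophage (SD, n = 4) and 259 ± 91.6 CPM in cells-alone libraries (SD, n = 4). The STZ- against control-macrophage log2 fold change was -1.08 ± 0.25 and did not pass (adjusted p = 0.0852). Cd84 was lower than in cells alone after both co-cultures, with log2 fold changes of -2.08 ± 0.29 with STZ macrophages (adjusted p = 1.01e-04) and -0.997 ± 0.27 with control macrophages (adjusted p = 0.0086).

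Ly9, a receptor known in mice to restrain innate-like T cells, had 137.6, 194.6, 190.9, 154.1 and 155.9 CPM in the STZ-macrophage libraries. The control-macrophage libraries had 210.4, 217.1, 366.7 and 257.2 CPM, and the cells-alone libraries 390.9, 216.0, 403.9 and 462.6 CPM. The STZ-macrophage libraries were again below all others, although their highest was close to the lowest of the control-macrophage group. Ly9 averaged 167 ± 24.9 CPM in STZ-macrophage (SD, n = 5), 263 ± 72.3 CPM in control-macrophage (SD, n = 4) and 368 ± 106 CPM in cells-alone libraries (SD, n = 4). Against control macrophages the log2 fold change was -0.79 ± 0.21 (adjusted p = 0.132), and against cells alone it was -1.42 ± 0.24 (adjusted p = 5.08e-04).

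The difference between control-macrophage co-culture and cells alone was weaker for Ly9, at -0.63 ± 0.22 (adjusted p = 0.0372). Of 25 alternatives, 17 ended this call. With the replicate number as a block, the log2 fold change was -0.61 and did not pass (adjusted p = 0.0842), nor did it with RLE size factors (-0.59, adjusted p = 0.0612). Within day 1 libraries it was -0.61 (adjusted p = 0.104). It also ended without cells-alone replicates 1, 3 or 4 (adjusted p = 0.0712, 0.0909 and 0.101), control-macrophage replicates 1, 2 or 4 (0.124, 0.109 and 0.0918) or STZ-macrophage replicates 2 or 3 (0.0515 and 0.0526).

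Slamf1, the founding member and a self-ligand that co-stimulates T cells, was low in cells alone and higher in both co-cultures. It had 117.9, 144.3, 146.6, 150.5 and 130.4 CPM in STZ-macrophage libraries, against 111.3, 95.7, 222.7 and 130.0 CPM in control-macrophage libraries and 46.9, 19.1, 31.9 and 30.5 CPM in cells alone. All co-culture libraries exceeded all cells-alone libraries, and both co-culture groups overlapped. Slamf1 averaged 138 ± 13.5 CPM in STZ-macrophage (SD, n = 5), 140 ± 56.9 CPM in control-macrophage (SD, n = 4) and 32.1 ± 11.4 CPM in cells-alone libraries (SD, n = 4). Slamf1 rose against cells alone with STZ macrophages (log2 fold change 1.78 ± 0.27, adjusted p = 2.17e-04) and with control macrophages (1.93 ± 0.26, adjusted p = 8.7e-05). Between the co-cultures the log2 fold change was -0.15 with a 95% interval of -0.67 to 0.37 (adjusted p = 0.708), and it was 0.060 when libraries were scaled by totals alone.

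Slamf7 (also known as CRACC), found in humans and mice on NK cells, plasma cells, activated lymphocytes and macrophages, had few or no counts in cells alone and moderate levels in co-culture. STZ-macrophage libraries had 31.4, 58.5, 58.4, 45.8 and 30.7 CPM, and control-macrophage libraries 4.47, 10.0, 56.4 and 20.5 CPM. Cells-alone replicates 1 and 2 had 0 counts, a limit of 3 counts being 0.092 and 0.133 CPM there, and replicates 3 and 4 had 1.01 and 0.439 CPM (45 and 15 counts). Every co-culture library was above every cells-alone library, but control-macrophage replicate 3 reached the top of the STZ-macrophage range while the other 3 lay below all STZ-macrophage libraries. Slamf7 averaged 45.0 ± 13.7 CPM in STZ-macrophage (SD, n = 5), 22.9 ± 23.4 CPM in control-macrophage (SD, n = 4) and 0.361 ± 0.477 CPM in cells-alone libraries (SD, n = 4).

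Against cells alone, Slamf7 rose with STZ macrophages (log2 fold change 5.99 ± 1.02, adjusted p = 4.81e-04) and with control macrophages (5.18 ± 0.99, adjusted p = 0.00105). The size of these fold changes depends on how libraries at 0 are treated, with ranges over the alternatives of 5.25 to 13.6 for STZ macrophages and 4.24 to 12.6 for control macrophages. Between STZ- and control-macrophage co-cultures it was 0.81, with a 95% interval of -0.84 to 2.46 (adjusted p = 0.512). It was positive in all 25 alternatives, from 0.54 to 2.13, and passed in none.

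Since macrophages can express Slamf7, its level is set beside genes of myeloid cells. Slamf8, a SLAM-type gene of myeloid cells, had 0.955, 1.83, 2.86, 4.19 and 0.831 CPM in STZ-macrophage libraries, 0.241, 0.378, 0.925 and 0 CPM in control-macrophage libraries and 0 counts in all cells-alone libraries. Csf1r, the macrophage growth factor receptor, had 1.13, 1.31, 5.66, 4.77 and 2.11 CPM in STZ-macrophage libraries, 0.757, 0.328, 0.617 and 0.0659 CPM in control-macrophage libraries and 0.522, 0.933, 0.201 and 0.790 CPM in cells alone. Control-macrophage replicate 4 had 20.5 CPM of Slamf7 with 0 counts of Slamf8 and of its relative Slamf9 and 2 counts of Csf1r. In that library 15 of the 16 macrophage markers had counts, and without Ctss they summed to 12.3 CPM. Lyz2, the lysozyme gene of myeloid cells, had 7.25, 11.1, 45.6, 44.5 and 7.45 CPM in STZ-macrophage libraries, 1.20, 1.76, 24.9 and 2.57 CPM in control-macrophage libraries and 0, 0, 0 and 0.146 CPM in cells alone. Control-macrophage replicate 3 was the highest of its group for both Slamf7 and Lyz2, and the markers without Ctss were highest there too. Lyz2, C1qb, Adgre1, Fcer1g and Cd14 were higher than in cells alone with both macrophages, and C1qc and Cd68 with STZ macrophages. The summed CD8 T and NK cell markers ran from 208 to 517 CPM with STZ and 127 to 770 CPM with control macrophages. In cells alone they summed to 17.7 to 42.8 CPM, and control-macrophage replicate 3 was again the highest of its group. Of the 7 tested, 1 was lower with STZ macrophages and 0 with control macrophages than in cells alone. What part RNA of macrophages or of cells with these markers had in the Slamf7 values was not tested. Pooled over libraries, Slamf8 was at least 90.8-fold higher in STZ-macrophage co-culture and at least 17.5-fold higher in control-macrophage co-culture than in cells alone, with a floor of 3 counts over the cells-alone group. For Slamf9 the bounds were 22.6-fold for STZ-macrophage and 5.26-fold for control-macrophage co-culture.

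**Figure D3:**
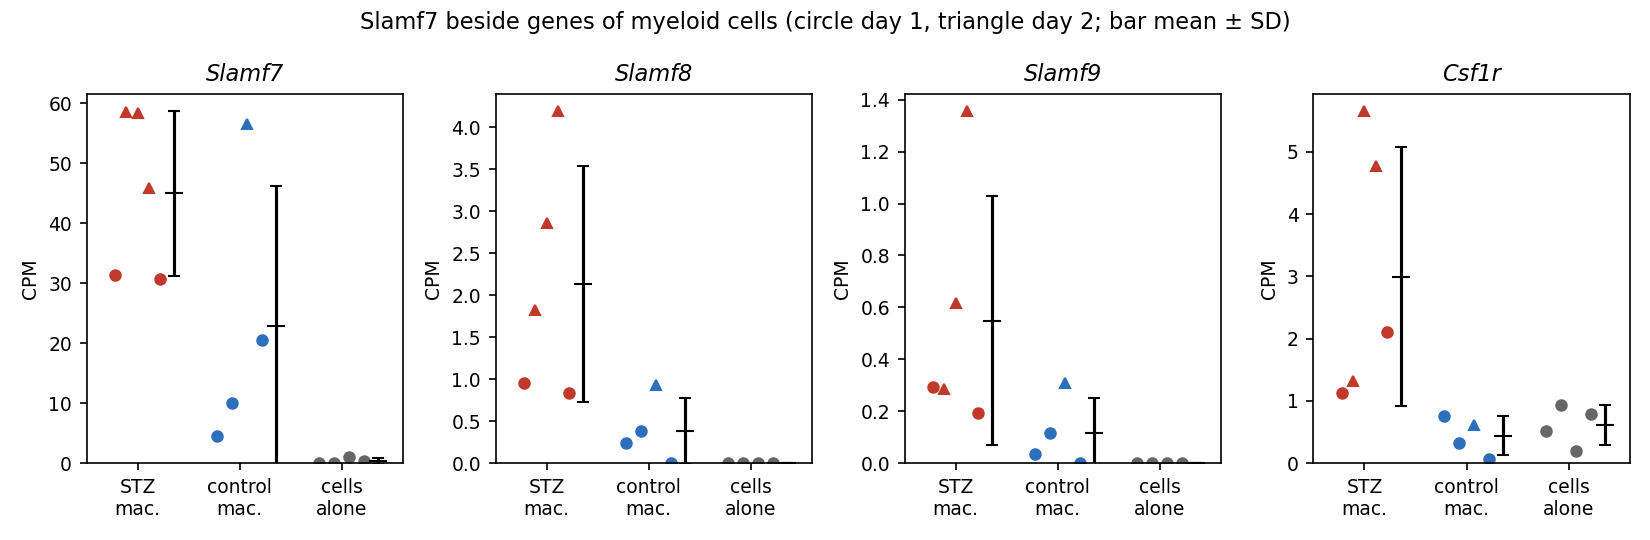
CPM (vertical axes, linear, starting at 0) of Slamf7, Slamf8, Slamf9 and Csf1r in each library, with STZ-macrophage left, control-macrophage in the middle and cells alone right. Circles are day 1 and triangles day 2, and bars are the mean ± SD with lower ends under 0 not drawn. Control-macrophage replicate 3, the triangle of its group, is the highest of that group for Slamf7 (56.4 CPM) and Slamf8 (0.925 CPM). Control-macrophage replicate 4, the last circle of its group, has 20.5 CPM of Slamf7 and lies at 0 for Slamf8 and Slamf9. Replicate 4 also had 2.57 CPM of the myeloid gene Lyz2, which is not drawn.

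Cd48, the lipid-anchored ligand, differed between the co-cultures in the opposite sense to Slamf7 without passing. It had 207.0, 318.7, 360.3, 312.2 and 226.6 CPM with STZ macrophages, 306.0, 315.9, 696.9 and 409.5 CPM with control macrophages and 215.7, 127.5, 305.4 and 269.2 CPM in cells alone. STZ-macrophage libraries overlapped both other groups, and the lowest control-macrophage library exceeded the highest cells-alone library by under 1 CPM. Cd48 averaged 285 ± 65.2 CPM in STZ-macrophage (SD, n = 5), 432 ± 183 CPM in control-macrophage (SD, n = 4) and 229 ± 77.3 CPM in cells-alone libraries (SD, n = 4). The log2 fold change was -0.83 ± 0.23 for STZ against control macrophages (adjusted p = 0.140) and -0.18 ± 0.26 for STZ macrophages against cells alone (adjusted p = 0.612).

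For control macrophages against cells alone Cd48 was higher by a log2 fold change of 0.65 ± 0.24 (adjusted p = 0.0448). Of 25 alternatives, 14 ended this call. By library totals alone the log2 fold change was 0.35 (adjusted p = 0.171), and within day 1 it was 0.66 (adjusted p = 0.112). It also ended without cells-alone replicate 1 (adjusted p = 0.0762), without control-macrophage replicates 2, 3 or 4 (0.0540, 0.0672 and 0.104) and without any of STZ-macrophage replicates 1 to 5 (0.0606 to 0.0653).

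Its receptor Cd244a, typical of NK and CD8 T cells, was near the bottom of the family. It had 2.55, 4.64, 4.15, 2.74 and 2.47 CPM in STZ-macrophage libraries, 2.48, 1.82, 5.03 and 1.98 CPM in control-macrophage libraries and 3.74, 2.13, 4.34 and 7.84 CPM in cells alone. All groups overlapped. The log2 fold change between STZ- and control-macrophage co-cultures was 0.0034, with a 95% interval of -0.83 to 0.84. Against cells alone it was -0.998 with STZ macrophages (adjusted p = 0.0904) and -1.002 with control macrophages (adjusted p = 0.0740).

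The adaptor gene Sh2d1a passed in none of the comparisons. Its libraries had 95.1, 95.8, 130.1, 123.6 and 95.4 CPM with STZ macrophages, 98.5, 133.4, 201.2 and 173.0 CPM with control macrophages and 115.4, 85.1, 157.3 and 139.7 CPM in cells alone. All groups overlapped, and control-macrophage replicates 3 and 4 lay above every STZ-macrophage library. The log2 fold change was -0.61 ± 0.22 for STZ against control macrophages (adjusted p = 0.166), -0.45 ± 0.25 for STZ macrophages against cells alone (adjusted p = 0.163) and 0.16 ± 0.23 for control macrophages against cells alone (adjusted p = 0.587). The last reversed to -0.15 under scaling by totals alone. Around the group means, log2 CPM of Sh2d1a varied by an SD of 0.356, and its root mean square deviation over all 13 libraries was 0.364. For Slamf6 these values were 0.387 and 1.11. The SD is corrected for the fitted group means and the root mean square is not, so the 2 measures are not on the same scale.

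The scaling of libraries shifts every gene by the same amount, so the members were also set against the median of all genes. By totals alone, the median log2 fold change of all genes was 0.07 in place of -0.13 for STZ against control macrophages, -0.17 in place of -0.05 for STZ macrophages against cells alone and -0.45 in place of -0.13 for control macrophages against cells alone. Relative to that median, Slamf6 in STZ- against control-macrophage co-culture was at -1.52 with TMM and -1.51 with totals. By the same scalings, TMM and then totals, Cd84 was at -0.95 and -0.94, Ly9 at -0.66 and -0.65, Cd48 at -0.69 and -0.69 and Slamf1 at -0.019 and -0.0076. Cd48 in control-macrophage co-culture against cells alone, whose call depended on the scaling, was at 0.78 with TMM and 0.80 with totals, and Sh2d1a was at 0.29 and 0.30.

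Ratios of counts between members within a library need no scaling. Slamf1 over Slamf6 was 1.79 to 2.40 in STZ-macrophage libraries, 0.516 to 0.891 in control-macrophage libraries and 0.0571 to 0.0938 in cells alone. Slamf7 over Slamf6 was 0.455 to 0.731 in STZ-macrophage, 0.0250 to 0.226 in control-macrophage and 0 to 0.00218 in cells-alone libraries. Cd84 over Slamf6 was 0.863 to 1.04 with STZ macrophages and 0.583 to 0.723 with control macrophages, and the control-macrophage range overlapped the 0.472 to 0.696 of cells alone. Ly9 over Slamf6 was 2.19 to 2.46 with STZ macrophages, 1.15 to 1.47 with control macrophages and 0.782 to 1.04 in cells alone. The ratios of Cd48 and Sh2d1a to Slamf6 also did not overlap between the co-cultures. Because Slamf6 is the denominator of all, these ratios are not independent, and 68.4% of all genes had a ratio to Slamf6 that was higher in the STZ- than in the control-macrophage libraries without overlap. Between the co-cultures each ratio given here differed without overlap, as for most genes, while Cd84 over Slamf6 overlapped between control-macrophage libraries and cells alone. The ratios do not show which of a pair changed.

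**Figure D4:**
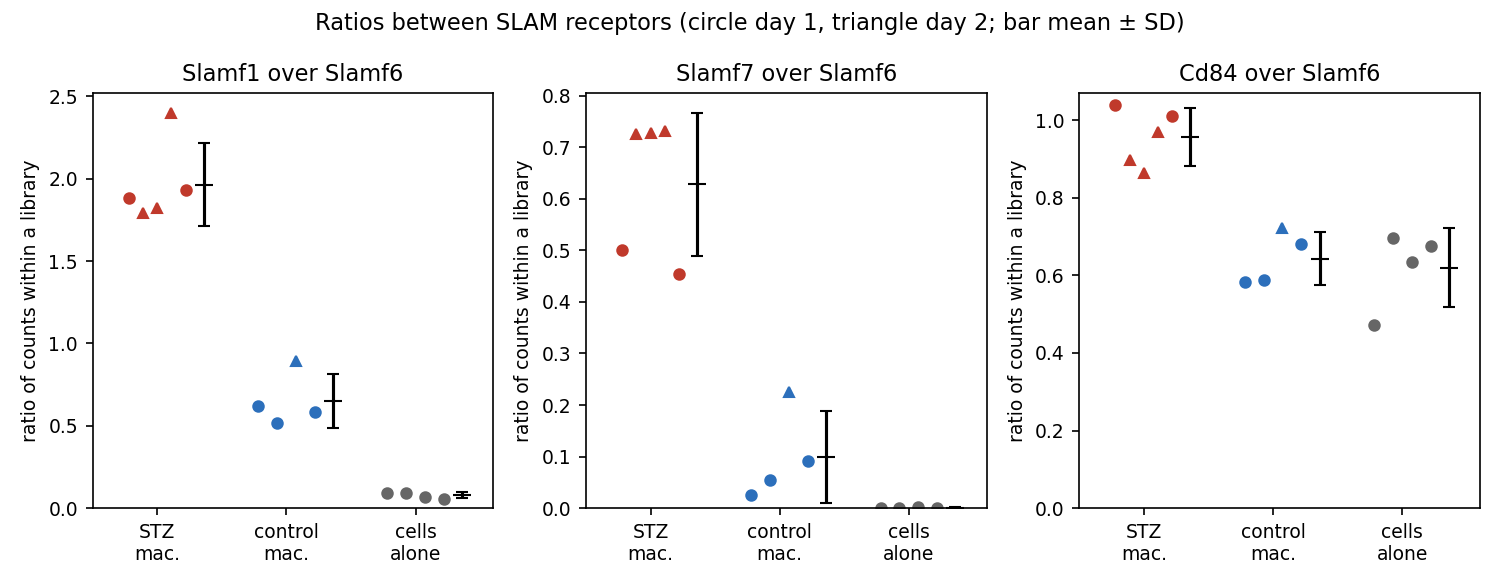
Ratio of counts within each library (vertical axes, linear, starting at 0) for Slamf1 over Slamf6, Slamf7 over Slamf6 and Cd84 over Slamf6, with STZ-macrophage left, control-macrophage in the middle and cells alone right. Circles are day 1 and triangles day 2, and bars are the mean ± SD. In each panel the STZ-macrophage libraries lie above the control-macrophage libraries, from 1.79 against at most 0.891 for Slamf1 over Slamf6.

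Per kilobase of exon, the order of levels within the family differed between the groups. STZ-macrophage libraries averaged 240 CPM per kb for Cd48, 50.4 for Ly9, 22.4 for Slamf1, 19.6 for Sh2d1a, 10.7 for Cd84, 9.82 for Slamf7, 6.53 for Slamf6 and 0.679 for Cd244a. Control-macrophage libraries averaged 363 CPM per kb for Cd48, 79.5 for Ly9, 27.5 for Sh2d1a, 22.7 for Slamf1, 21.7 for Cd84, 19.3 for Slamf6, 4.99 for Slamf7 and 0.579 for Cd244a. Cells alone averaged 193 CPM per kb for Cd48, 111 for Ly9, 41.2 for Cd84, 39.3 for Slamf6, 22.6 for Sh2d1a, 5.22 for Slamf1, 0.925 for Cd244a and 0.0789 for Slamf7. In STZ-macrophage libraries the ranges of neighbours in this order overlapped between Slamf1 and Sh2d1a, Cd84 and Slamf7, and Slamf7 and Slamf6. In control-macrophage libraries Sh2d1a, Slamf1, Cd84 and Slamf6 overlapped one another, as did Slamf7 and Cd244a. In cells alone Cd48 overlapped Ly9, and Cd84, Slamf6 and Sh2d1a overlapped. By the order of the means, Slamf6 had rank 7 of 8 in STZ-macrophage, rank 6 in control-macrophage and rank 4 in cells-alone libraries.

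As a share of the 7 receptors' summed CPM per kb, Slamf6, Cd84 and Ly9 together made up 20.2 ± 2.41% in STZ-macrophage (SD, n = 5), 24.3 ± 2.67% in control-macrophage (SD, n = 4) and 49.2 ± 3.28% in cells-alone libraries (SD, n = 4). The co-culture ranges overlapped and both lay below the cells alone. Cd48 made up 70.1 ± 2.77% with STZ macrophages, 70.3 ± 2.09% with control macrophages and 49.2 ± 3.51% in cells alone. Slamf6 itself took 1.95 ± 0.272% with STZ macrophages, 3.99 ± 0.742% with control macrophages and 9.96 ± 1.39% in cells alone, with no overlap between any of the groups. Slamf7 took 2.84 ± 0.373% with STZ macrophages, 0.821 ± 0.550% with control macrophages and 0.0166 ± 0.0220% in cells alone. These shares use all annotated exonic bases of a gene as its length, which overstates the length where a cell makes a shorter transcript.

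Levels of the members were also compared between the collection days. All 8 members had a positive log2 fold change for day 2 against day 1 in the co-cultures, and 55.7% of all genes did. None passed edgeR's test, where 3.15% of all genes passed (2.1% higher and 1.05% lower), and 3 of the 8 had an unadjusted p below 0.05, as had 28.9% of all genes. The STZ- against control-macrophage difference was negative in 5 of 8 members within day 1 and in 8 of 8 within day 2 (58.6% and 56.9% of all genes), and 0 members passed edgeR's test within either. Within day 1, 0.215% of all genes passed (0.0444% lower), and 3 of the 8 members and 16.3% of all genes had an unadjusted p below 0.05. Within day 2, 0% of all genes passed, and 5 of the 8 members and 2212 of all genes (14.0%) had an unadjusted p below 0.05. Cd84 had a log2 fold change of -0.87 within day 1 and -1.42 within day 2. No member passed the edgeR or DESeq2 test of the difference in the STZ effect between days, which 0.00634% of all genes passed by edgeR, and 0 members had an unadjusted p below 0.05. Day 2 holds a single control-macrophage library, assumed in this fit to vary like the others. With day 1 libraries alone, STZ-macrophage co-culture (n = 2) against cells alone gave log2 fold changes of -2.48 for Slamf6, -1.72 for Cd84, -1.09 for Ly9, 2.18 for Slamf1 and 6.55 for Slamf7, all passing edgeR's test. Control-macrophage co-culture (n = 3) against cells alone gave -1.04 for Slamf6, -1.01 for Cd84, 1.88 for Slamf1 and 4.96 for Slamf7, all passing too.

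Over all 13 libraries, the members closest to each other in centred log2 CPM were Cd84 and Slamf6, with a root mean square difference of 0.335, Cd48 and Sh2d1a (0.339) and Cd84 and Ly9 (0.344). The farthest apart were Slamf6 and Slamf7 (4.46). Among 7374 genes of sufficient level, those with the pattern most like Slamf6 included Ipcef1 (0.242), Cd27 (0.251), B3gnt5 (0.265) and Gramd3 (0.292), and the median gene differed by 1.3. Cd27 encodes a co-stimulatory receptor of T cells. Between STZ- and control-macrophage co-cultures these 4, which were chosen on the same values, had log2 fold changes of -1.19 to -1.11.

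Among 20 genes of SLAM signalling, listed by role, 18 were tested. None passed edgeR's test between STZ- and control-macrophage co-cultures, where 0.323% of all genes passed. An unadjusted p below 0.05 was found for 6 (22.8% of all genes), and 1 passed by DESeq2. The smallest p between them was that of Inpp5f (log2 fold change -0.71, adjusted p = 0.121). Against cells alone, 2 were higher and 6 lower with STZ macrophages (20.8% and 22.3% of all genes). With control macrophages 2 were higher and 7 lower (23.1% and 22% of all genes). The genes for the adaptor EAT-2, Sh2d1b1 and Sh2d1b2, through which Slamf7 signals in NK cells, had 0 counts in every library, where 3 counts pooled over a group correspond to 0.0196 CPM for the control-macrophage and 0.0224 CPM for the cells-alone libraries. Fyn, the kinase bound by SAP, was lower in both co-cultures, with 30.4 ± 6.34 CPM in STZ-macrophage (n = 5), 32.0 ± 8.41 CPM in control-macrophage (n = 4) and 47.8 ± 7.09 CPM in cells-alone libraries (SD, n = 4). Its log2 fold change was -0.97 with STZ macrophages (adjusted p = 0.00336) and -0.74 with control macrophages (adjusted p = 0.0107). Prkcq, the T cell protein kinase C downstream of Fyn, had -1.49 with STZ and -1.40 with control macrophages, and Plcg1, a phospholipase of receptor signalling, -1.76 with STZ and -1.58 with control macrophages, all passing.

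Among the other genes of the same list, Dok2, an adaptor that dampens Ras signalling, was higher in both co-cultures, with log2 fold changes of 1.76 with STZ and 2.02 with control macrophages. Ptpn6, encoding the phosphatase SHP-1, was higher with control macrophages (0.62, adjusted p = 0.0143). Inpp5d, encoding SHIP-1, had 374 ± 102 CPM with STZ macrophages (n = 5), 356 ± 73.7 CPM with control macrophages (n = 4) and 229 ± 53.6 CPM in cells alone (SD, n = 4) and did not pass. Rasa1, a Ras-inactivating protein, was lower with both (-2.05 with STZ and -1.23 with control macrophages), as were Pik3c3, a lipid kinase (-1.74 with STZ and -1.02 with control macrophages), and Inpp5f, a phosphoinositide phosphatase (-1.73 with STZ and -1.01 with control macrophages). Nck1, a cytoskeletal adaptor, was lower with control macrophages (-0.95), and Was, an actin regulator, higher with STZ macrophages (1.84).

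Of 8 other CD2-type and SLAM-type surface genes and adhesion partners, 7 were tested. All 7 passed against cells alone with either macrophage, 5 higher and 2 lower. Of all genes, 43.1% passed with STZ and 45% with control macrophages. None of the 7 passed edgeR's test between the co-cultures, where 0.323% of all genes passed. An unadjusted p below 0.05 was found for 4 (22.8% of all genes), and 1 passed by DESeq2. One of the 5 that were higher was Slamf8, given above as a bound. Cd2, the adhesion receptor that Cd48 binds in mice, had 505 ± 45.7 CPM with STZ macrophages (n = 5), 664 ± 89.5 CPM with control macrophages (n = 4) and 292 ± 69.9 CPM in cells alone (SD, n = 4), a log2 fold change over cells alone of 0.63 with STZ (adjusted p = 0.0159) and 1.12 with control macrophages (adjusted p = 2.45e-04). Itgal, the integrin chain of LFA-1, was higher by 1.35 with STZ and 1.53 with control macrophages, and Cd226, a co-stimulatory receptor, by 1.14 with STZ and 2.24 with control macrophages. The LFA-1 ligands went opposite ways, with Icam1 higher by 1.31 with STZ and 0.86 with control macrophages and Icam2 lower, at -1.91 with STZ and -1.40 with control macrophages. Crtam, an adhesion receptor related to the nectins, was lower, at -2.87 with STZ and -2.003 with control macrophages. Its CPM ranges overlapped, at 0.388 to 6.93 with STZ macrophages, 1.75 to 8.17 with control macrophages and 4.61 to 13.3 in cells alone. Crtam was also higher on day 2 than on day 1 in the co-cultures (log2 fold change 2.39, edgeR's adjusted p = 0.0352). The fold changes against cells alone, which have no day 2 library, lean on that day effect. Between the co-cultures, Cd226 had a log2 fold change of -1.10 (adjusted p = 0.112).

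The third list held 16 genes linked with follicular helper cells, innate-like T cells and interleukin 4 production, of which 13 were tested. A place on the list does not mean that a gene itself needs SAP, and such a need was not tested. Between STZ- and control-macrophage co-cultures 2 passed, both lower (0.171% of all genes were lower). They were Tcf7, the transcription factor of naive and memory-like T cells (81.5 ± 14.2 CPM with STZ macrophages, n = 5, 231 ± 66.1 CPM with control macrophages, n = 4, and 1278 ± 257 CPM in cells alone, SD, n = 4; log2 fold change -1.32, adjusted p = 0.0199), and Il6ra, the interleukin 6 receptor (-1.78, adjusted p = 0.04998). By DESeq2, 3 of the list passed, 1 higher and 2 lower. Of 25 alternatives, 12 ended the call for Tcf7 and 17 that for Il6ra, while the log2 fold change stayed between -1.50 and -1.11 for Tcf7 and between -2.07 and -1.57 for Il6ra. Leaving out any control-macrophage library ended both (adjusted p = 0.0521 to 0.157 for Tcf7 and 0.0843 to 0.228 for Il6ra), as did leaving out STZ-macrophage replicates 1, 2, 4 or 5 (0.0545 to 0.156 for Tcf7 and 0.0767 to 0.245 for Il6ra) or cells-alone replicate 3 (0.0505 for Tcf7 and 0.0925 for Il6ra). Without STZ-macrophage replicate 3 Tcf7 passed (adjusted p = 0.0357) and Il6ra did not (log2 fold change -1.75). Against cells alone, 4 were higher and 4 lower with STZ macrophages (20.8% and 22.3% of all genes). With control macrophages 5 were higher and 3 lower (23.1% and 22% of all genes). The genes higher with both were Icos (2.29 with STZ and 2.84 with control macrophages), a co-stimulatory receptor of follicular helper cells, Pdcd1 (1.72 with STZ and 2.57 with control macrophages), encoding PD-1, Maf (2.64 with STZ and 2.43 with control macrophages), a transcription factor, and Izumo1r (1.96 with STZ and 2.91 with control macrophages), encoding folate receptor 4. Btla, an inhibitory receptor, was higher with control macrophages (0.97). Bcl6, the transcription factor that defines follicular helper cells, was lower with both (-1.59 with STZ and -1.43 with control macrophages). Tcf7 (-3.69 with STZ and -2.37 with control macrophages) and Il6ra (-5.67 with STZ and -3.90 with control macrophages) were lower with both too. Cd40lg, the helper ligand for B cells, was lower with STZ macrophages (-1.30). Zbtb16 and Ascl2 had 0 counts in every library, and Il4 had 25, 28 and 31 counts pooled over the STZ-macrophage, control-macrophage and cells-alone libraries.

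Genes that border the receptor cluster on chromosome 1 were counted for comparison of position. Of 21 listed, 15 were tested. None passed edgeR's or DESeq2's test between STZ- and control-macrophage co-cultures, where 1 of the 7 clustered receptors and 0.323% of all genes passed by edgeR. An unadjusted p below 0.05 was found for 6 (22.8% of all genes). Against cells alone, 2 were higher and 4 lower with STZ macrophages (20.8% and 22.3% of all genes). With control macrophages 3 were higher and 1 lower (23.1% and 22% of all genes). The fitted value of Igsf9, called higher with both, rests on 1 pooled count in cells alone. Dcaf8, a substrate receptor of a ubiquitin ligase, was lower with both (-0.50 with STZ and -0.63 with control macrophages). Ufc1, of a ubiquitin-like pathway, was higher with control macrophages (0.75). Nit1 (-0.78), Dedd (-0.70) and Ncstn (-0.89), a subunit of gamma-secretase, were lower with STZ macrophages. The 4 lists, in the order given, had 18, 7, 13 and 15 genes tested. Over them together, 2 genes passed between the co-cultures, where 0.323% of all genes passed. Against cells alone, 29 passed for STZ macrophages (43.1% of all genes) and 28 for control macrophages (45% of all genes).

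The number of members called between the co-cultures varied with the libraries and the fit. Over 25 alternatives it was 0 in 11, 1 in 9, 2 in 2 and 4 in 3. The 4 were Slamf6, Cd84, Ly9 and Cd48, all lower, and they passed when only the STZ- and control-macrophage libraries were fitted, when cells-alone replicate 2 was left out and when cells-alone replicates 1 and 2 were left out. The count of all genes that passed moved too, from 51 as reported to 2698 with only the 2 groups fitted. With 1 library left out it ran from 0 to 583. Without cells-alone replicate 2 the adjusted p was 0.000593 for Slamf6, 0.0235 for Cd84, 0.0296 for Ly9 and 0.0407 for Cd48. The log2 fold changes of these 4 were negative in all 25 alternatives.

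**Figure D5:**
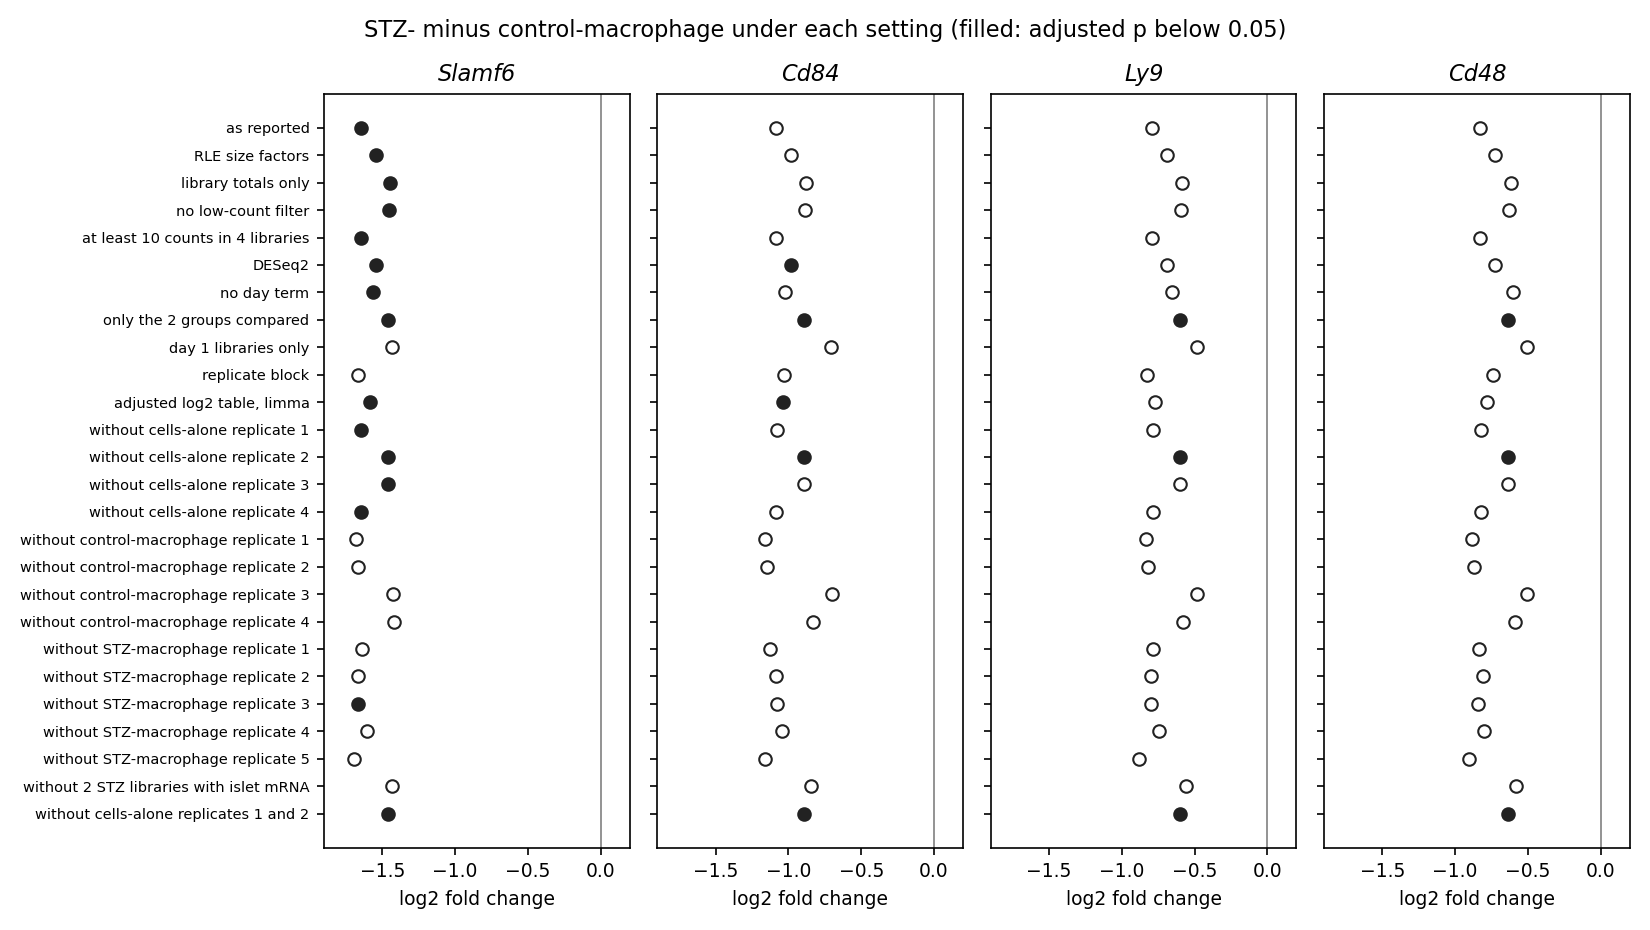
Log2 fold change of Slamf6, Cd84, Ly9 and Cd48 for STZ- against control-macrophage co-culture (horizontal axes) as reported and under each of 25 alternatives (rows). Filled points had an adjusted p below 0.05. All points lie left of 0, those of Slamf6 between -1.69 and -1.42, and 14 of its alternatives are filled.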

How the data were processed

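Bulk RNA-seq of 13 libraries was analysed from 2 deposited tables. Per the labels' protocols, libraries made with the SMARTer Ultra Low kit from 10 ng of RNA were sequenced as paired reads and aligned to GRCm38. For the aligner, the counter and the annotation, the sources used here give no name. DESeq2 is named, with no version, in the submitters' processing notes. One table gives the authors' estimated counts, deposited with no normalization, of which about 11% are not whole, and these were rounded. The other gives log2 values of 12236 genes, deposited by the authors after an adjustment not described here, used only as an alternative. Of the value columns, 0 were unmatched.

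Counts were tested with edgeR 4.0.16 (R 4.3.3) in 1 fit over all libraries with terms for group and day, TMM scaling, filterByExpr (15781 genes left) and robust quasi-likelihood tests, adjusted by Benjamini-Hochberg over all genes and called at adjusted p below 0.05. DESeq2 1.42.0 and limma 3.58.1 served as alternatives. Each standard error is the log2 fold change divided by the square root of its F statistic. Reads of NOD mice were set against a C57BL/6 assembly, and isoforms are not resolved by counts per gene. In single libraries 3 counts equal 0.0493 to 0.133 CPM, and floors cover counting error only, since there are no molecular identifiers. P-values set a difference against the spread between these libraries, and the labels do not say how many animals gave each library.

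The members and lists were chosen with earlier results of these data known. Named genes are all members, the called genes of each list with a few of the smallest p, and the 5 genes closest to a called member. Of the genes this rule takes, 2 are not reported here. Lists comprised SLAM signalling, other CD2- and SLAM-type surface genes, genes linked with follicular helper cells, innate-like T cells and interleukin 4, and neighbours of the cluster. Markers of 8 cell types were also set, of which dendritic cell markers summed to at most 9.39 CPM, plasma cell markers to at most 39.6 CPM, platelet and mast cell markers to at most 69.9 CPM and islet endocrine markers to at most 153 CPM in any library. Gene positions are from GENCODE vM21 (GRCm38), which held 53365 of 55367 table symbols. Alternatives were other scalings, filters, tools and designs and leaving out libraries; 2 of them, without STZ-macrophage replicates 2 and 4 and without cells-alone replicates 1 and 2, were chosen after seeing the data.

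Replicate numbers are shared between groups. Between control-macrophage co-culture and cells alone, libraries with the same number deviated together from their group means in 4 of 4 pairs (r = 0.161 to 0.352), which meets the condition set for pairs. The fit reported has no term for them, and a fit with the number as a block is an alternative. No label states a pairing, pairs of unlike numbers reached 0.433, and 3 of the 4 libraries correlated best with their own number.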

Additional observations from a re-analysis of the deposited data

How the results depend on the processing

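Most of the 25 alternatives changed 1 choice. The adjusted log2 table also brought limma, its own set of genes and no day term. DESeq2 brought its own size factors, and the fit of day 1 libraries had no day term. For STZ against control macrophages, 1 member passed as reported. It was 2 with DESeq2 and with the adjusted log2 table, 4 with only the 2 groups fitted and without cells-alone replicates 1 and 2, and 0 with day 1 libraries only, with the replicate block and without STZ-macrophage replicates 2 and 4; single libraries left out gave 0 to 4. Of the list genes, 2 passed as reported, 1 (Tcf7, without Il6ra) with RLE size factors, totals only, no filter or at least 10 counts in 4 libraries, 5 with DESeq2, 18 with only the 2 groups, 12 without cells-alone replicates 1 and 2, and 0 with day 1 only, the replicate block or without STZ-macrophage replicates 2 and 4; single libraries left out gave 0 to 4. The all-gene count, 51 as reported, was 674 with DESeq2, 2698 with only the 2 groups and 0 with the replicate block. Single libraries left out gave 0 to 583. The causes were not tested.

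Numbers did not pair the STZ-macrophage libraries with the others (correlations -0.202 to 0.474 with control-macrophage, 3 of 4 over 0.1, and -0.415 to 0.331 with cells alone, 2 of 4). With the replicate block, in which STZ-macrophage replicate 5 has no partner, Slamf6 was at -1.67 (adjusted p = 0.554) for STZ against control macrophages, and 19 in place of 29 list genes passed for STZ macrophages against cells alone.

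Signs reversed for values that had not passed. Slamf1 for STZ against control macrophages (-0.15) was 0.060 by totals, 0.049 without filter, 0.040 with only the 2 groups, 0.039 without cells-alone replicates 1 and 2, 0.30 on day 1, 0.10 without STZ-macrophage replicates 2 and 4, and -0.26 to 0.30 with 1 library left out. Cd48 for STZ macrophages against cells alone (-0.18) was 0.093 without filter, 0.31 without the day term, 0.15 on day 1, 0.0087 with the replicate block, 0.59 in the adjusted table, 0.083 without STZ-macrophage replicates 2 and 4, and -0.28 to 0.22 with 1 library left out. Sh2d1a for control macrophages against cells alone (0.16) was -0.15 by totals and -0.095 without cells-alone replicates 1 and 2. Cd244a was -0.026 with the block for STZ against control macrophages, -0.075 to 0.41 with 1 library left out, and 0.10 in the adjusted table for STZ macrophages against cells alone. Slamf1, Slamf6, Slamf7 and Cd84 kept their calls against cells alone in 25 of 25 alternatives with both macrophages, and Ly9 with STZ macrophages.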
